A study of Mus musculus with 38 samples.

Results

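To ask how RUNX1 occupancy differed between the LP and Phase 1 stages in cells that carried only a control guide RNA, 2 lists of RUNX1 chromatin immunoprecipitation (ChIP-seq) peaks were compared, LP_RUNX1_sgCont with 975 peaks and Phase1_RUNX1_sgCont with 1550 peaks. All peaks of both lists were used, 2525 of the 359759 peaks in the 17 deposited lists, and peaks that shared at least 1 bp were called shared. Of the LP peaks, 337 (34.6%, 95% Wilson interval 31.6 to 37.6) overlapped a Phase 1 peak and 638 (65.4%) were LP-only, whereas 337 of the Phase 1 peaks (21.7%) were shared and 1213 (78.3%) were Phase 1-only. LP-only peaks lay mostly at promoters (481 of 638), and Phase 1-only peaks lay mostly outside promoters (1106 of 1213). In the RUNX1 lists of cells without a guide, called unmanipulated here, 16.8% of 31995 LP peaks and 30.7% of 38399 Phase 1 peaks lacked a peak of the other stage.

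RUNX1 is a Runt-domain transcription factor that binds DNA together with its partner CBFβ and is needed for the formation of blood stem cells and for T cell development. Notch signaling starts the T-lineage program. When a Notch receptor meets a ligand such as DLL4, its intracellular domain (Notch1-IC for Notch1) is released, enters the nucleus and activates target genes with the DNA-binding protein RBPJ. Lymphoid progenitors that lack Ebf1, a factor of B-lineage commitment, do not proceed along the B lineage and can be turned toward the T lineage by a Notch ligand.

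All cells were of the mouse Cas9-LP type, lymphoid progenitor lines derived from the fetal liver of animals that were Ebf1-deficient and carried a Rosa26-Cas9 knock-in, and every list named here shares both alleles. LP cells were cultured on OP9 stroma, and Phase 1 cells on OP9-DLL4, stroma that displays DLL4 to the cells. Phase 2, used here for Notch1-IC only, is the study's later stage on OP9-DLL4, after T-lineage commitment. The sgCont cells had been transduced with a retrovirus that encodes a guide RNA and the surface marker hNGFR, and the study's control guides target luciferase. Comparison lists came from unmanipulated LP and Phase 1 cells, from LP cells with guides against Ctcf (sgCTCF, 874 RUNX1 peaks) and from Phase 1 cells with guides against Med12 (sgMed12, 2094 RUNX1 peaks), and the antibody was anti-RUNX1 (abcam, ab23980) throughout. Whether guide-control and unmanipulated Phase 1 cells spent the same time on stroma was not given in the sources used here. Each list was made from 2 replicates that the deposited files no longer separate, so the intervals and tests below count peaks, compare lists, and carry no error between cultures. The study's methods give a single approximate read number for all ChIP-seq samples and none for each list, so a missing peak cannot be told apart from one below detection. The authors state that knockout cells were scarce and that ChIP-seq of them, which includes the sgCTCF and sgMed12 lists, was noisier. The lists hold no expression values, and the stage labels were not checked against marker genes.

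Sequences at some of the peaks are shown first, because the letters at the peaks differed between the classes. Each is the central 100 bases of a guide-control peak, read from the mm10 genome on the plus strand. Capitals mark a RUNX string, TGTGGTT or TGCGGTT or the complement of either, AACCACA or AACCGCA. They comprise high-scored peaks outside promoters of the LP-only and shared classes, the shared peak near Cd28, and Phase 1-only peaks near genes of the progenitor, T-lineage and RUNX lists. Windows with a string were favoured, so the printed set does not show how common the strings are. Of all 40 such windows at named Phase 1-only peaks 10 hold one, as do 4 of 10 shared and 1 of 10 LP-only windows. The highest-scored LP-only peak outside promoters, near Jund, lies in a 5′ UTR, and the highest Phase 1-only peaks outside promoters lie in ribosomal RNA repeats or a 3′ UTR, so others were taken.

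Ccne1, LP-only, chr7:38085021-38085120: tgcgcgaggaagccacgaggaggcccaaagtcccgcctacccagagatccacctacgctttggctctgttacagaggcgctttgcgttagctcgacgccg
Mir23a, LP-only, chr8:84198530-84198629: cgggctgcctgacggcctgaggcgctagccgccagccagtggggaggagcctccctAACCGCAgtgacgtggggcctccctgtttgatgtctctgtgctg
Dad1, shared, chr14:54227526-54227625: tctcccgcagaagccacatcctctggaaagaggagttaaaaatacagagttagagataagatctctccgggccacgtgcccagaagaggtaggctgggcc
Lmna, shared, chr3:88510164-88510263: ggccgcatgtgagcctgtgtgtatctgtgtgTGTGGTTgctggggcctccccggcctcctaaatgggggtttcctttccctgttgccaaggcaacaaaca
Atp13a2, shared, chr4:140983583-140983682: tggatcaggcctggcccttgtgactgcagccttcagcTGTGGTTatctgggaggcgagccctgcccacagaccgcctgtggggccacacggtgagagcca
Cd28, shared, chr1:60702828-60702927: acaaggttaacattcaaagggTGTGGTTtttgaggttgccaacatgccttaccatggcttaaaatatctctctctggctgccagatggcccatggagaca
Lyl1 intron, Phase 1-only, chr8:84703504-84703603: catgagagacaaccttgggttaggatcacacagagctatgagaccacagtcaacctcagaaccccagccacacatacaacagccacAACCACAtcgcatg
Runx1 intron, Phase 1-only, chr16:92822131-92822230: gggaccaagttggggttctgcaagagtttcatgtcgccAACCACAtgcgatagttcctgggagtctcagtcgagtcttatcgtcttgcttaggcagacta
Flt3 intron, Phase 1-only, chr5:147366508-147366607: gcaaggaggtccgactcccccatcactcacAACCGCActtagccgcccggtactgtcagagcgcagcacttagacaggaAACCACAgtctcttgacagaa
Ikzf1, Phase 1-only, chr11:11657284-11657383: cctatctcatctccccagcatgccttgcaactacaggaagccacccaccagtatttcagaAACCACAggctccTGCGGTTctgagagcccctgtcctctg
Gfi1, Phase 1-only, chr5:107759258-107759357: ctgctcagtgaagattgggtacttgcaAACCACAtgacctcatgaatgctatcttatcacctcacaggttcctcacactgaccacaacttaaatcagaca
Tcf7, Phase 1-only, chr11:52314347-52314446: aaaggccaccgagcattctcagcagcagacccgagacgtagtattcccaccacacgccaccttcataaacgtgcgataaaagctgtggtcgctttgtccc
Gata3, Phase 1-only, chr2:9594104-9594203: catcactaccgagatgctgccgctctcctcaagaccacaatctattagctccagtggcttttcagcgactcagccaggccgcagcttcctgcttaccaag

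The peaks near Ccne1, Mir23a, Dad1, Lmna, Atp13a2, Cd28, Ikzf1, Tcf7 and Gata3 are annotated as intergenic, and that near Gfi1 lies in an intron of its neighbour Evi5. The windows near Ccne1, Dad1, Tcf7 and Gata3 hold none of the 4 strings, and those in the Flt3 intron and near Ikzf1 hold 2 each. A string match describes the letters in a window and was not tested as a binding site.

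Promoter location separated the stage-only classes. A promoter peak is one that HOMER annotates as promoter-TSS, and 731 of the 750 such peaks had their centre between 1 kb upstream and 100 bp downstream of a transcription start. Some peaks called outside promoters still lay near a start. Within 1 kb of one were 506 LP-only peaks, beside 481 called promoter, and 146 Phase 1-only peaks, beside 107. At promoters lay 75.4% of LP-only peaks (71.9 to 78.6) and 8.82% of Phase 1-only peaks (7.35 to 10.5), an odds ratio of 31.7 (two-sided Fisher's exact test, adjusted p = 1.35e-191 over the 9 tests made). Shared peaks were in between, with 81 of 337 at promoters (24.0%, 19.8 to 28.9). Among LP-only peaks, 12.4% were intronic and 9.56% intergenic, against 44.7% and 41.2% of Phase 1-only peaks. The median distance to the nearest start was 0.125 kb for LP-only, 11.2 kb for shared and 16.9 kb for Phase 1-only peaks. Only 2 LP-only peaks (0.313%) but 116 Phase 1-only peaks (9.56%) lay over 100 kb from a start.

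Read the other way, promoter peaks of the LP list were seldom shared and promoter peaks of the Phase 1 list were often shared. Of LP promoter peaks 81 of 562 (14.4%) had a Phase 1 peak, against 256 of 413 peaks outside promoters (62.0%, odds ratio 0.103, adjusted p = 3.41e-54, Fisher's exact test). Of Phase 1 promoter peaks 81 of 188 (43.1%) had an LP peak, against 256 of 1362 outside promoters (18.8%, odds ratio 3.27, adjusted p = 3.61e-12, Fisher's exact test). Both tests reuse the counts behind the promoter shares above, so they are not separate results. The Phase 1 list held 188 promoter peaks beside the 562 of the LP list, which limits how many of the latter could be shared. The overall share of LP peaks that were shared therefore depended on whether promoters were counted, 34.6% with them and 62.0% without. In the unmanipulated lists, promoter peaks were shared more often than others in both stages, 94.3% against 78.7% in LP and 92.5% against 61.9% in Phase 1.

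The whole LP guide-control list was 57.6% promoter peaks and the Phase 1 guide-control list 12.1%. The unmanipulated lists held 28.5% and 24.1%, close to each other. Shorter lists keep the higher-scored peaks, so the highest-scored unmanipulated peaks were taken in equal number. Among the highest 975 unmanipulated LP peaks 64.2% were promoters, near the guide-control value, whereas among the highest 1550 unmanipulated Phase 1 peaks 55.9% were promoters, far above the 12.1% of the guide-control list. The sgCTCF list of LP cells had 52.7% promoters and the sgMed12 list of Phase 1 cells 19.4%. The Med12 list from guide-control Phase 1 cells held 42.3% promoters among 19053 peaks. The odds of a promoter peak were 9.86 times higher in LP than in Phase 1 for the guide-control lists and 1.26 times higher for the unmanipulated lists.

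**Figure D1:**
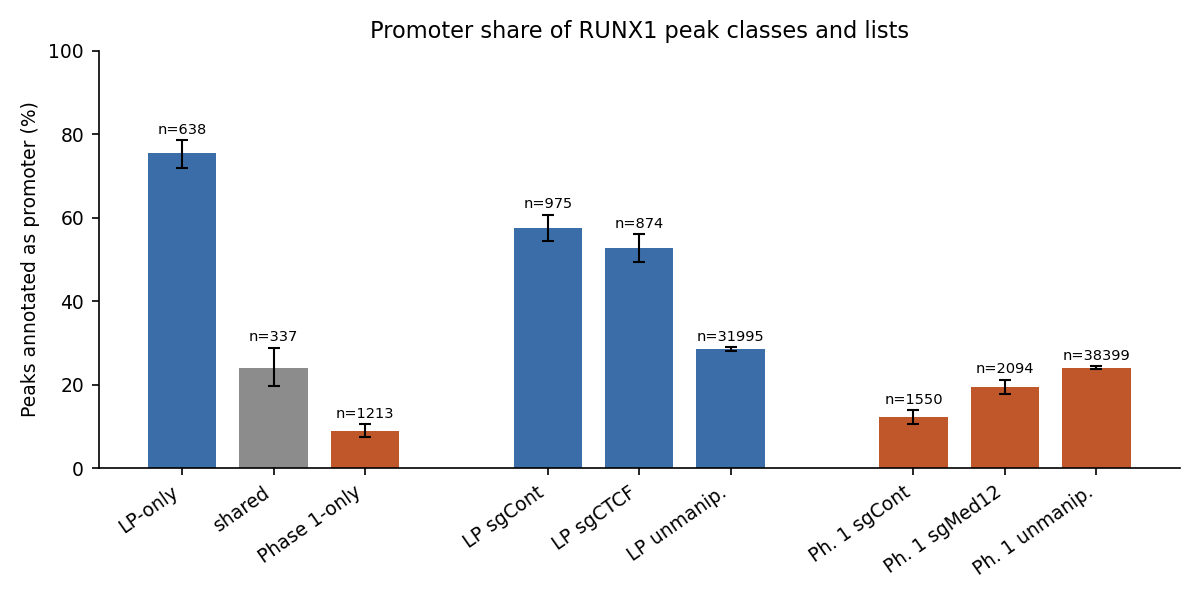
Share of RUNX1 peaks annotated as promoter (y axis, percent) in each RUNX1 list, with 95% Wilson intervals as error bars that cover counting of peaks only. The LP guide-control list stands at 57.6% and the Phase 1 guide-control list at 12.1%, while the unmanipulated lists stand at 28.5% and 24.1%.

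The same contrast appears when the unmanipulated peaks are followed into the guide-control lists by rank. A peak's percentile is its score rank within its own list, from 0 for the lowest to 100 for the highest. Of unmanipulated LP peaks above the 99th percentile, the LP guide-control list held 40.6% of those at promoters and 62.1% of those outside. Of unmanipulated Phase 1 peaks above the 99th percentile, the Phase 1 guide-control list held 16.4% at promoters and 77.1% outside. Between the 95th and 99th percentiles the LP values were 24.8% and 36.4%, and the Phase 1 values 7.73% and 59.1%. Between the 80th and 90th percentiles LP recovery was 6.22% at promoters and 3.62% outside, and Phase 1 recovery 1.61% and 16.6%. At each of these ranks the Phase 1 guide-control list held fewer promoter peaks and more peaks outside promoters than the LP list did. Below the 80th percentile no value exceeded 0.570%.

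**Figure D2:**
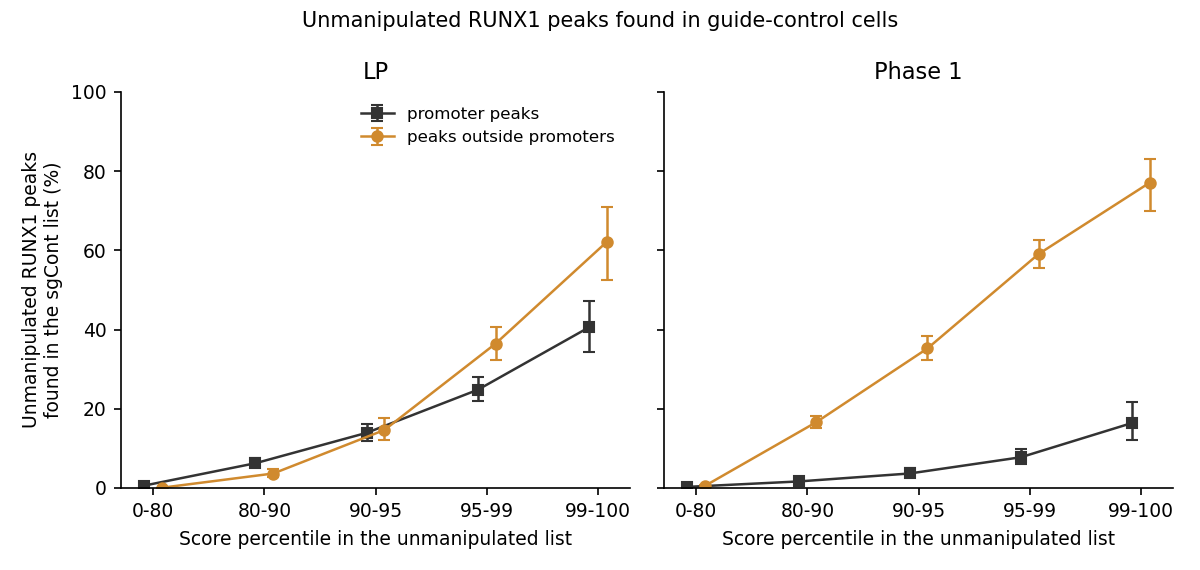
Share of unmanipulated RUNX1 peaks (y axis, percent) that the guide-control list of the same stage holds, by class of score percentile within the unmanipulated list (x axis), for promoter peaks and peaks outside promoters, with 95% Wilson intervals. In Phase 1 the class above the 99th percentile stands at 16.4% for promoters and 77.1% for other peaks.

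Nearly all guide-control peaks, the stage-only ones included, had an unmanipulated RUNX1 peak in both stages. This held for 607 of 638 LP-only peaks (95.1%), 333 of 337 shared peaks and 1128 of 1213 Phase 1-only peaks (93.0%). Few of the stage-only guide-control peaks were thus stage-specific in unmanipulated cells. Of LP-only peaks 14 overlapped the unmanipulated LP list alone, 8 the Phase 1 list alone and 9 neither list. Of Phase 1-only peaks 67 overlapped the unmanipulated Phase 1 list alone, 7 the LP list alone and 11 neither list. Where a stage-only peak overlapped 1 unmanipulated list alone, the directions matched in 14 of 22 LP-only and 67 of 74 Phase 1-only cases. The share with the LP list alone was 63.6% (43.0 to 80.3) for LP-only and 9.46% (4.66 to 18.3) for Phase 1-only peaks, an odds ratio of 16.8 (adjusted p = 1.40e-06, Fisher's exact test). With a minimum score of 30 the odds ratio was 13.0 and the adjusted p no longer passed 0.05. Seen from the unmanipulated lists, 13 of 5385 LP-specific peaks (0.241%) and 67 of 11789 Phase 1-specific peaks (0.568%) were in the guide-control list of their stage, against 3.54% and 5.49% of the peaks that both unmanipulated lists held.

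The 14 LP-only peaks that overlapped the unmanipulated LP list alone were divided evenly, 7 at promoters and 7 outside. Of these, 2 overlapped an LP CTCF peak. By score the 14 were led by Dhrsx (51.3, on an unplaced sequence), Mir8102 (40.8), Tpm3 (34.5), which encodes a tropomyosin, and Foxo3 (34.1), a forkhead transcription factor. An unmanipulated LP peak met by such a peak can itself overlap an unmanipulated Phase 1 peak, so 14 differs from the 13 above. Of the 67 Phase 1-only peaks that overlapped the unmanipulated Phase 1 list alone, 66 lay outside promoters. They were led by peaks near Lyl1 (57.8), a helix-loop-helix factor of progenitors, Tcf7 (55.4), which encodes the T-lineage factor TCF1, Slc45a1 (53.8), Inpp5d (47.5), the phosphatase SHIP1 of blood cells, and Mir142 (44.4), a microRNA locus of blood cells. Among them, 35 were also in the sgMed12 list of Phase 1 cells, which held 66.4% of all Phase 1-only peaks. A Phase 1 Med12 peak overlapped 60 and an LP Med12 peak 6, while p300 of Phase 1 overlapped 61 and p300 of LP 23. The 67 were picked for lacking an unmanipulated LP RUNX1 peak, so their low LP counts are not a separate result. A Notch1-IC peak of Phase 2 overlapped 16 of the 67, and 5 of these also overlapped one of Phase 1. The Phase 2 list overlapped 9.40% of all Phase 1-only peaks and 0.680% of all unmanipulated Phase 1 peaks. These peaks were named after their values were seen.

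Peaks held by both unmanipulated lists were ranked in each of them. This leaves out the stage-only peaks that 1 unmanipulated list or neither held. Among these are the 14 LP-only and 67 Phase 1-only peaks above that overlapped the unmanipulated list of their own stage alone. The lists differ in length, 31995 against 38399 peaks, so a percentile difference of 0 does not stand for no change, and the classes are read beside all peaks that both lists held. For LP-only peaks the median percentile was 94.73 in unmanipulated LP and 94.99 in unmanipulated Phase 1, and the median difference, Phase 1 minus LP, was 0.181 points. For shared peaks it was 0.0719 points. For Phase 1-only peaks the medians were 85.5 in LP and 92.4 in Phase 1, the median difference was 5.68 points, and 920 of 1128 (81.6%) ranked higher in Phase 1. All 26610 unmanipulated LP peaks with a Phase 1 counterpart had a median difference of 2.59 points and ranked higher in Phase 1 in 61.8% of cases. Among peaks outside promoters the medians were -0.00778 for LP-only, 6.02 for Phase 1-only and 4.95 for all unmanipulated peaks. At promoters they were 0.255 for LP-only, 3.35 for Phase 1-only and 0.544 for all. Beside the values for all such peaks, the LP-only medians were lower and the Phase 1-only medians higher, at promoters and outside them. Shared peaks, however, had medians of 0.186 at promoters and 0.00912 outside, close to those of LP-only peaks. Their median percentile in unmanipulated LP was 97.1, nearer to that of LP-only peaks than the 57.2 of all such peaks. Of LP-only peaks 55.4% ranked higher in Phase 1, and of shared peaks 53.2%. These are descriptions, with no test, and percentiles near 100 leave little room to differ.

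**Figure D3:**
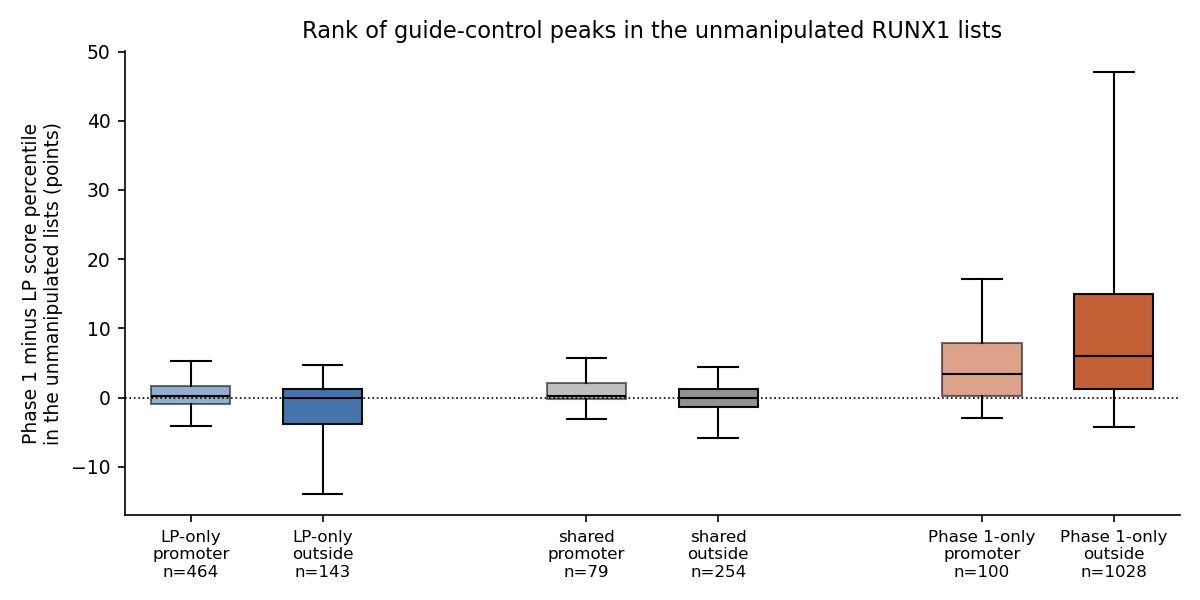
Difference in score percentile, unmanipulated Phase 1 minus unmanipulated LP (percentile points), for guide-control peaks that both unmanipulated lists hold, by class and promoter location. Boxes show the median and quartiles and whiskers the 5th and 95th percentiles. The Phase 1-only medians of 3.35 at promoters and 6.02 outside lie above the LP-only medians of 0.255 and -0.00778.

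The other guide lists, from separate samples, divided the classes in the same stage order. The sgCTCF list of LP cells held 54.5% of LP-only peaks, 67.7% of shared peaks and 5.36% of Phase 1-only peaks. The sgMed12 list of Phase 1 cells held 22.1%, 87.5% and 66.4%. Promoter class made little difference to the first of these: sgCTCF held 55.1% of LP-only promoter peaks and 52.9% of the others. It held 3.74% and 5.52% of Phase 1-only promoter and other peaks. In the sgMed12 list LP-only promoter peaks were found less often (17.0%) than LP-only peaks outside promoters (37.6%), and Phase 1-only peaks at 68.2% and 66.2%. These lists also differ from the guide-control lists in the targeted gene. For comparison, the sgCTCF list held 2.69% of all unmanipulated LP peaks and 32.2% of the 975 highest-scored of them. The sgMed12 list held 5.34% of all unmanipulated Phase 1 peaks and 35.7% of those 975 LP peaks.

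RUNX strings were found in the central 200 bp of 44.6% of Phase 1-only peaks (541 of 1213) and 11.6% of LP-only peaks (74 of 636 on named chromosomes), an odds ratio of 0.164 for LP-only over Phase 1-only (adjusted p = 1.64e-50, Fisher's exact test). Promoter class carried much of this contrast, and without promoter peaks the odds ratio was 0.539. Outside promoters the share was 32.1% (25.2 to 39.7) for LP-only, 50.0% (43.9 to 56.1) for shared and 46.7% (43.7 to 49.6) for Phase 1-only peaks, against 3.52% to 8.65% in windows of the same length 2 kb to each side. At promoters it was 5.00% (3.38 to 7.33) for LP-only peaks, which is near the 5.94% of their flanking windows and the 5.39% of all unmanipulated LP promoter peaks. Shared promoter peaks held the string in 22.2% of cases and Phase 1-only promoter peaks in 23.4%, against 6.11% of all unmanipulated Phase 1 promoter peaks and 8.32% of the promoters among its 1550 highest-scored peaks. Phase 1-only promoter peaks held RUNX strings more often than all unmanipulated Phase 1 promoter peaks, by intervals that do not overlap (16.4 to 32.2 against 5.64 to 6.62), and so did shared promoter peaks (14.5 to 32.4), while LP-only promoter peaks were at the level of their flanks.

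**Figure D4:**
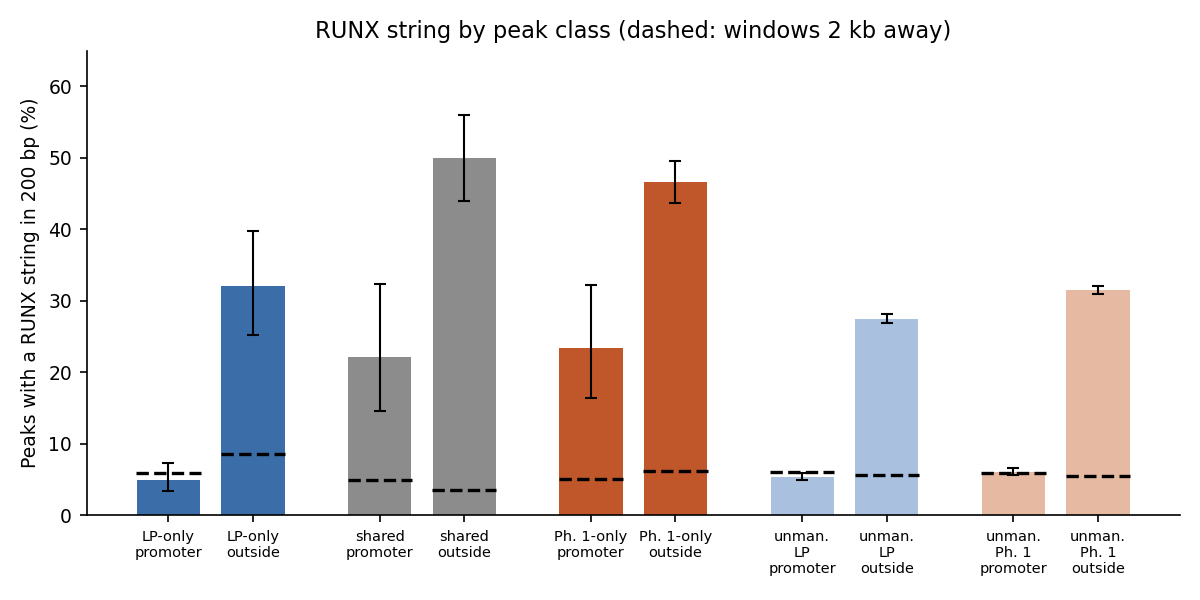
Share of peaks (y axis, percent) with a RUNX string in the 200 bp around the centre, by class and promoter location, with 95% Wilson intervals, and dashed lines for windows 2 kb to each side. Unman. stands for the unmanipulated lists and Ph. 1 for Phase 1, and LP-only promoters at 5.00% lie at their dashed line while Phase 1-only promoters stand at 23.4%.

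The strings of PU.1, RBPJ and AP-1, each on either strand, were counted without a test, and that of CTCF was tested. The PU.1 string GAGGAA was in 17.6% of LP-only, 30.6% of shared and 30.3% of Phase 1-only peaks, with 15.02%, 17.4% and 18.3% in the flanks. Outside promoters these shares were nearer to each other, 28.2% (21.7 to 35.7), 33.2% (27.7 to 39.2) and 30.5% (27.8 to 33.2), and at promoters they were 14.2%, 22.2% and 28.04%. The RBPJ string GTGGGAA was in 2.20%, 5.93% and 7.58%, with 3.62%, 5.04% and 4.12% in the flanks, and outside promoters in 2.56%, 6.25% and 7.69%. The AP-1 strings TGACTCA and TGAGTCA were in 2.67%, 5.93% and 6.18%, with 4.87%, 4.60% and 4.16% in the flanks, so that LP-only peaks were below their flanks. Outside promoters the AP-1 shares were 3.85%, 6.64% and 6.15%. A strict CTCF consensus string was in 1 LP-only and 1 Phase 1-only peak (odds ratio 1.91, p = 1, Fisher's exact test). When the whole peak was searched, it was in 5 LP-only and 2 Phase 1-only peaks, an odds ratio of 4.80 (adjusted p = 0.0660, Fisher's exact test).

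Among the cofactors, CTCF, the insulator-binding protein, had a peak of the same stage at 198 of 638 LP-only peaks (31.0%) and 291 of 1213 Phase 1-only peaks (24.0%), an odds ratio of 1.43 (adjusted p = 0.00193, Fisher's exact test). The direction turned with a minimum score of 30 (odds ratio 0.858) and with peak centres required to lie within 100 bp (0.952), so the difference depended on these choices. LP CTCF was at 23.2% of all peaks of the unmanipulated LP list and 24.2% of its 975 highest-scored peaks, and Phase 1 CTCF at 15.7% of the unmanipulated Phase 1 list and 23.4% of its 1550 highest. Med12, a subunit of the Mediator kinase module, and the acetyltransferase p300 overlapped nearly all peaks of every class. Med12 of the same stage overlapped 96.2% of LP-only and 97.8% of Phase 1-only peaks (adjusted p = 0.0924), and p300 96.9% and 97.3% (adjusted p = 0.743, Fisher's exact test). These values are near those of high-scored RUNX1 peaks in general. Med12 was at 84.7% of all and 98.7% of the 975 highest unmanipulated LP peaks, and at 86.02% of all and 98.6% of the 1550 highest in Phase 1. The p300 values were 90.8% and 97.1% in LP and 87.8% and 97.4% in Phase 1. The lower Med12 share of LP-only peaks passed the test when 0.5 of the shorter peak had to overlap, when centres had to lie within 100 bp and without promoter peaks, and that of p300 under the first of these and the second. Med12 of guide-control Phase 1 cells was at 97.02% of LP-only, 98.5% of shared and 97.3% of Phase 1-only peaks. Of unmanipulated Phase 1 peaks it was at 46.8% of all and 98.3% of the 1550 highest. It was also at 98.1% of LP-only promoters, at which the RUNX1 list of those cells had no peak. Beside that, it was at 83.2% of all unmanipulated Phase 1 promoter peaks.

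Notch1-IC was described without a test. The LP Notch1-IC list came from cells on OP9 stroma without DLL4, so its shares do not describe cells after Notch stimulation. What its peaks stand for was not tested. The list overlapped 39.5% of LP-only, 74.6% of shared and 30.7% of Phase 1-only peaks outside promoters, and 1.87% of LP-only promoter peaks. Of the 975 highest-scored unmanipulated LP peaks, those outside promoters were overlapped in 68.8% of cases. Notch1-IC peaks of Phase 1 or Phase 2 lay at 0.940% of LP-only, 6.82% of shared and 10.1% of Phase 1-only peaks. Outside promoters these were 1.91%, 8.59% and 10.5%, beside 12.6% of the peaks outside promoters among the 1550 highest-scored unmanipulated Phase 1 peaks. Taken apart, the Phase 1 Notch1-IC list overlapped 3.22% of all Phase 1-only peaks and the Phase 2 list 9.40%.

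By nearest gene, the stage-only classes had genes in common at about the share over all genes near a RUNX1 peak. LP-only peaks named 625 genes, shared peaks 314 and Phase 1-only peaks 1038. Of the 15447 genes nearest to an unmanipulated RUNX1 peak, 3.98% were named by LP-only, 2.03% by shared and 6.71% by Phase 1-only peaks. LP-only and Phase 1-only peaks had 44 genes in common, 7.04% of the former, beside the 6.71% over all genes, and 4.24% of the latter, beside 3.98%. Phase 1-only and shared peaks had 76 genes in common, 24.2% of the genes of shared peaks. Genes with more than 1 peak were 146 of 1038 for Phase 1-only and 13 of 625 for LP-only peaks, from classes of 1213 and 638 peaks. At promoters they were 0 of 107 and 1 of 480, and outside promoters 135 of 944 and 5 of 152. Class size was not adjusted for. The most were 4 Phase 1-only peaks each near Afdn, Sema4d, a semaphorin, Smad3, a mediator of TGF-β signaling, and Tgfbr1, a receptor for TGF-β. Stage-only peaks rarely lay side by side, and 9 LP-only and 9 Phase 1-only peaks were within 1 kb of a peak of the other list. At Pgls, an enzyme of the pentose phosphate pathway, the pair was 43 bases apart.

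The highest-scored LP-only peaks at promoters were those of Rita1 (score 64.4), which encodes an RBPJ-interacting protein, Por (59.0), the electron donor of cytochrome P450 enzymes, and Opa3 (53.7), a mitochondrial protein. All 3 were near the top of both unmanipulated lists, with Rita1 at percentile 99.6 in LP and 98.9 in Phase 1. Outside promoters the highest were near Jund (46.5), a member of AP-1, Ccne1 (45.5), cyclin E1, and Mir23a (44.6), at percentiles 97.8 to 99.9 in both lists. The highest-scored shared promoters were Rnf44 (115.1 in LP and 89.1 in Phase 1), Brpf1 (77.1 and 104.9), a subunit of MYST-family acetyltransferase complexes, and Msh6 (69.4 and 79.8), a mismatch repair protein. Outside promoters Dad1 (74.4 and 79.6), Lmna (70.3 and 71.6), Atp13a2 (60.8 and 82.8) and Aff3 (43.1 and 90.9) led 1 list or the other. Phase 1-only promoters were led by Nfe2 (77.9), a leucine zipper factor of megakaryocytes and erythroid cells, at percentile 99.81 in unmanipulated LP and 99.99 in Phase 1, by Mir466d (71.6) and by Pgls (50.0), which was in neither unmanipulated list. The peak named Mir466d lies in an intron of Camk1d, and the gene annotation used here places Mir466d elsewhere on the same chromosome. Outside promoters the leading Phase 1-only peaks were near Cdk8 (293.1), Pex2 (285.5) and Limd1 (270.3).

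Those last peaks call for care. The peak near Limd1 lies in the 3′ UTR of its neighbour Lars2. Those near Cdk8 and Pex2 lie in ribosomal RNA repeats. The Phase 1 guide-control list held 7 such peaks, all Phase 1-only, 5 of them among its 10 highest-scored, and the LP guide-control, sgCTCF and sgMed12 lists held 0. For a count of 0 the limit given here and below is that of 3 counts, not a Wilson bound, and for 975 LP guide-control peaks it allows a share of up to 0.308%. Both unmanipulated lists held such peaks, 10 in LP and 13 in Phase 1. Leaving out peaks in repeats and on unplaced sequences moved the promoter odds ratio from 31.7 to 31.4.

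The classes were read against 5 lists of genes, T-lineage genes, Notch receptors and direct targets, B-lineage genes, progenitor and myeloid genes, and RUNX factors with their partners. For comparison, the LP guide-control list held 2.98% of all unmanipulated LP peaks, and the Phase 1 guide-control list 3.98% of all unmanipulated Phase 1 peaks. Beside that, the latter held 19 of 171 unmanipulated Phase 1 peaks near T-lineage genes (11.1%, 7.23 to 16.7), and the LP list 3 of 126 LP peaks (2.38%). For Notch receptors and targets it was 10 of 89 in Phase 1 (11.2%, 6.22 to 19.5) and 0 of 51 in LP, which allows a share of up to 5.88%. For progenitor and myeloid genes it was 14 of 133 in Phase 1 (10.5%) and 1 of 102 in LP. B-lineage genes had 2 of 80 in Phase 1 (2.50%) and 0 of 74 in LP, which allows up to 4.05%. Genes of RUNX factors and partners had similar shares in both stages, 14 of 128 (10.9%) and 11 of 112 (9.82%). The LP intervals for T-lineage genes (0.813 to 6.77) and progenitor genes (0.173 to 5.35) hold the 2.98% over all LP peaks. The low LP counts therefore do not set these genes apart. Peaks near 1 gene are not independent, and Tcf7, Gata3 and Il2ra stand in both the T-lineage and the Notch list.

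Near T-lineage genes the guide-control lists held 0 LP-only, 3 shared and 16 Phase 1-only peaks, the latter at 12 of the 27 genes. In all, these classes held 638, 337 and 1213 peaks. All 16 were in the unmanipulated Phase 1 list, 13 of them also in the unmanipulated LP list, 12 in the sgMed12 list, and 5 overlapped a Notch1-IC peak of Phase 1 or Phase 2. The shared peaks were near Cd3d, a chain of the T cell receptor complex (35.8 in LP and 43.5 in Phase 1), Lat, an adaptor of T cell receptor signaling (19.5 and 35.1), and Cd28, a costimulatory receptor (20.5 and 28.5). Tcf7 had 2 Phase 1-only peaks upstream of its start, where negative distances are upstream. That at -35.6 kb scored 61.2 in Phase 1 sgCont and 37.0 in sgMed12, and was at percentile 93.9 in unmanipulated LP and 98.4 in Phase 1. That at -31.4 kb scored 55.4 in Phase 1 sgCont and 30.5 in sgMed12, was absent from the unmanipulated LP list and at percentile 96.8 in Phase 1, and overlapped a Phase 2 Notch1-IC peak.

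Gata3, which encodes a T-lineage zinc finger factor, had 3 Phase 1-only peaks all annotated as intergenic, at positive distances from its start. At 284.4 kb the score was 44.4, with percentiles of 75.8 in unmanipulated LP and 99.1 in Phase 1. At 76.9 kb it was 33.0, with percentiles of 94.5 and 98.3, and at 270.7 kb it was 15.9, with percentiles of 2.61 and 88.7. The first pair overlapped a Phase 2 Notch1-IC peak. Zap70, the kinase of T cell receptor signaling, had a peak at 56.9 kb, inside an intron of Tmem131, with percentiles of 67.9 and 99.04 and with Notch1-IC in both Phase 1 and Phase 2. Il2ra, which encodes CD25, had one at -19.5 kb (score 20.5) that was absent from unmanipulated LP and at percentile 94.6 in Phase 1, again with Notch1-IC in both. Lef1, a relative of TCF1, had one at -95.7 kb (22.5), absent from unmanipulated LP and at percentile 80.7 in Phase 1. The remaining T-lineage peaks, near Cd247, Satb1, Lck, Tox, Cd2, Cd3e and Cd7, scored from 16.1 to 36.4 and were in both unmanipulated lists. Of these, the peak at -161.5 kb from Tox, a nuclear factor of thymocyte development, had the widest gap, percentile 9.21 in LP and 86.9 in Phase 1.

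Of Notch genes outside the T-lineage list, Notch3 had an intronic peak at 2.54 kb (29.1, percentiles 74.6 and 92.1) and Notch1 an intronic peak at 1.49 kb (21.4) that was absent from unmanipulated LP and at percentile 78.4 in Phase 1. Notch1-IC of Phase 1 and of Phase 2 lay at the peaks of both receptors. Rbpj had a peak at -134.8 kb (16.1, percentiles 36.2 and 88.6), and Hes1, a repressor induced by Notch, one at 80.3 kb (16.1) with nearly equal percentiles of 57.5 and 58.1.

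**Figure D5:**
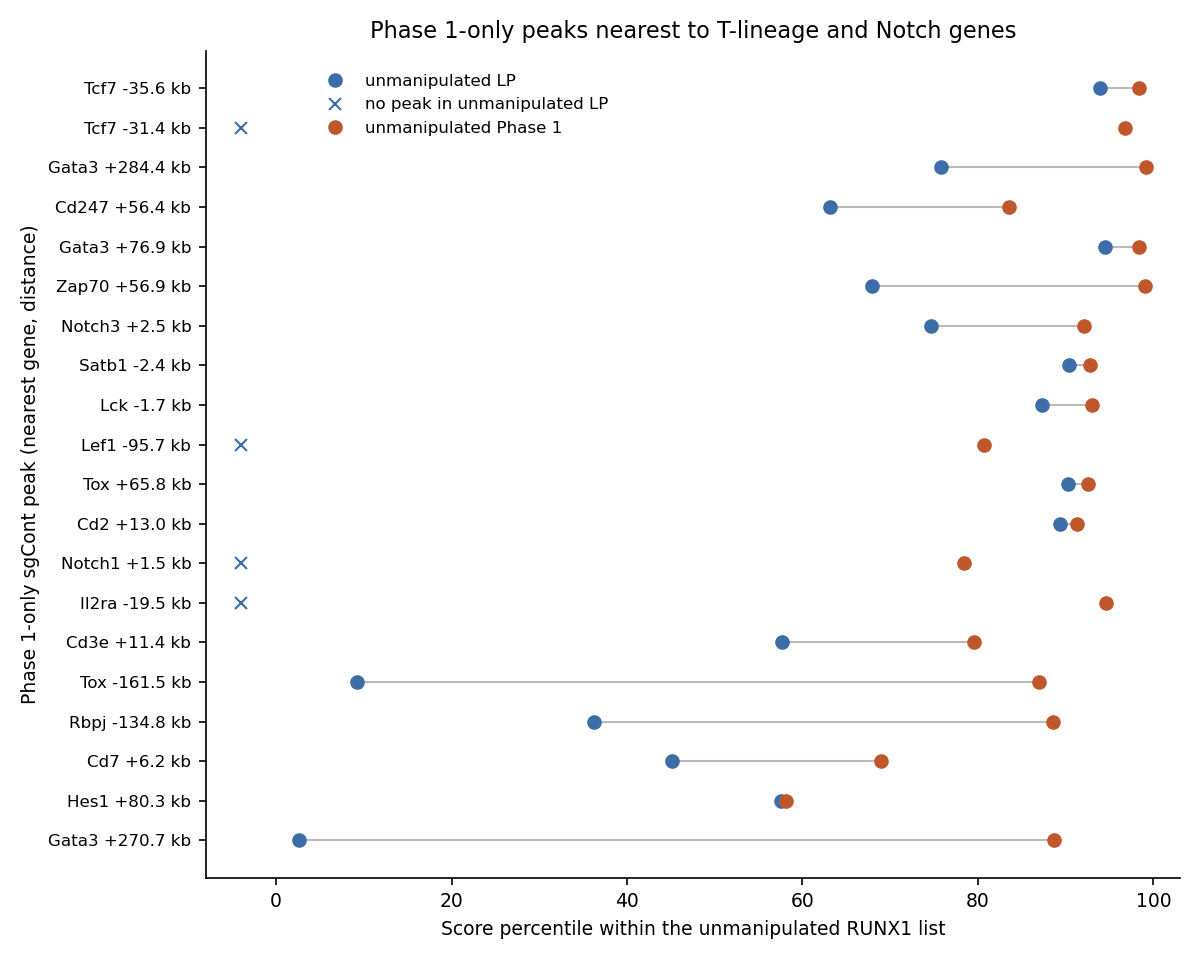
Score percentile within the unmanipulated LP list (blue) and the unmanipulated Phase 1 list (orange) of the 20 Phase 1-only guide-control peaks nearest to T-lineage and Notch genes, in order of guide-control score, with a cross at the left where unmanipulated LP had no peak. The Phase 1 point lies to the right of the LP point for each of the 16 peaks that had both. Outside promoters, 81.8% of all Phase 1-only peaks with both percentiles also ranked higher in Phase 1. The same held for 65.1% of all peaks outside promoters that both unmanipulated lists had.

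Near progenitor and myeloid genes there were 14 Phase 1-only peaks at 9 of 27 genes and 1 LP-only peak. The classes held 1213 and 638 peaks in all, and the LP count is too low to set these genes apart. Promoters made up 4 of the 14, Nfe2, Lyl1 (39.0), Flt3 (33.6), which encodes a cytokine receptor of progenitors, and Gfi1 (18.4), a zinc finger repressor. The paper counts Nfe2 and Gfi1 among the T-signature genes that Notch regulates, so this list is not separate from that group. The Nfe2 promoter peak overlapped a Notch1-IC peak of LP and of Phase 1 cells. The Flt3 peaks ranked lower in unmanipulated Phase 1 than in unmanipulated LP, 90.7 against 97.2 at the promoter and 96.9 against 99.5 in the intron at 33.9 kb, whose sequence above holds 2 RUNX strings. The Csf1r peak, at the receptor for the myeloid cytokine M-CSF, also did so (85.8 against 90.1). Lyl1 carried both directions within a short stretch, an LP-only peak at -1.33 kb (28.2, percentiles 98.8 in LP and 95.5 in Phase 1), a Phase 1-only promoter peak (percentiles 97.8 and 98.9) and a Phase 1-only intronic peak at 2.10 kb (57.8), which was absent from unmanipulated LP and at percentile 97.3 in Phase 1. Ikzf1, which encodes Ikaros, had a peak at -28.6 kb (24.9, percentiles 93.7 and 96.7) with 2 RUNX strings. Spi1, which encodes PU.1, had one at -8.96 kb (16.3), absent from unmanipulated LP and at percentile 62.7 in Phase 1. The B-lineage peaks were near Cd72 (22.8) and Bach2 (15.4).

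Of the RUNX genes themselves, Runx1 and Runx3 had peaks in both stages, and Runx2 had a single peak, Phase 1-only, in its intron at 81.5 kb (19.8, percentiles 81.3 in unmanipulated LP and 90.3 in Phase 1). The Runx1 promoter peak was shared (39.8 in LP and 42.3 in Phase 1) and held 3 RUNX strings, and it was in all 6 RUNX1 lists (43.3 in sgCTCF and 44.5 in sgMed12). Runx1 also had 3 Phase 1-only intronic peaks, led by that at 3.89 kb (47.5), at percentile 82.7 in unmanipulated LP and 96.7 in Phase 1. Runx3 had 3 shared peaks, led by its promoter (59.0 in LP and 72.6 in Phase 1, with 2 RUNX strings), 2 LP-only peaks at 29.5 and 40.5 kb (17.2 and 17.3) and 3 Phase 1-only peaks (26.5 to 39.1). Both LP-only Runx3 peaks were also in the sgMed12 list of Phase 1 cells (21.6 and 28.5). The LP-only class included the promoters of Cbfb (29.2), the RUNX partner, Ep300 (45.3), which encodes p300, and Tle4 (35.2), a Groucho corepressor, none of which held a RUNX string. All 3 ranked at least as high in unmanipulated Phase 1 as in LP, Cbfb at 90.4 against 85.0, Ep300 at 99.5 against 98.98 and Tle4 at 99.9 against 99.7. Cbfa2t3, which encodes a corepressor of the ETO family, had 2 Phase 1-only peaks, and that at -1.80 kb scored 70.8, with percentiles of 99.5 in LP and 99.3 in Phase 1.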

How the data were processed

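ChIP-seq peaks came as 17 lists for 38 samples in 19 groups of 2 replicates per the labels, and 4 of the samples were inputs. Per the study's methods, the authors aligned reads to mm10, called and annotated peaks with HOMER against a control, and applied the irreproducible discovery rate to each pair of replicates, which combined them into 1 list. The submitters' processing notes name Bowtie 1.1.1, HOMER and bcl2fastq 1.8.4. The authors deposited a normalized peak score of unstated scale, never below 15, and the distance to the nearest start, and the score was used only within 1 list. Peaks were 305 bp wide in LP sgCont and 351 bp in Phase 1 sgCont. The methods give 1 approximate read number for all ChIP-seq samples, the lists give no depth, and intervals cover counting error only.

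Groups followed the labels. Overlaps, 95% Wilson intervals and 9 two-sided Fisher's exact tests with sample odds ratios and Benjamini-Hochberg adjustment were computed in Python 3.11.15 (scipy 1.17.1, pandas 2.3.3, numpy 2.4.6), and sequences were read by pysam 0.24.0 from GRCm38 (mm10), 1-based. Scripts were tested on simulated data. Symbols were matched through RefSeq accessions (GRCm38.p6) for 2522 of 2525 guide-control peaks, and exon, intron and UTR notes came from GENCODE and RefSeq for that build. The strings and gene lists, and the peaks compared, were chosen with earlier results of these data known. Peaks were named where they were among the 3 highest-scored of a class at promoters or outside them, or nearest to a listed gene. A gene of the T-lineage list is not reported here. Alternatives were a minimum score of 30, equal list lengths, 2 stricter overlaps, removal of repeats, another promoter definition, removal of promoters, score matching over 5 classes and other string windows. Restriction to peaks in both unmanipulated lists, and the descriptions of recovery and rank, were added after seeing the data.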

Additional observations from a re-analysis of the deposited data

Results flagged for a closer look

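The odds of a promoter peak in LP over Phase 1 differed between the guide-control and the unmanipulated RUNX1 lists. The ratio of these odds ratios was 7.85 with a 95% interval by Woolf's method from 6.42 to 9.60, which counts peaks and carries no error between cultures. The odds ratio was 9.86 for the guide-control and 1.26 for the unmanipulated lists. List length moved with this difference, since the guide-control lists held 975 and 1550 peaks and the unmanipulated lists 31995 and 38399, and its part in the result was not tested beyond the equal numbers of highest-scored peaks given above.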

How the results depend on the processing

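Each of the 10 results was recomputed under the alternatives, 68 values in all, and 58 kept their direction, their side of the threshold or, for the stage overlap, a value within its interval. The share of LP peaks that were shared was 31.3% with equal numbers of top-scored peaks and 62.0% without promoter peaks, where fewer peaks entered. The CTCF odds ratio turned to 0.858 with a minimum score of 30 and to 0.952 with centres at most 100 bp apart. The direction odds ratio was 13.0 at a minimum score of 30, with 4 of 6 LP-only cases left. The Med12 odds ratio passed the threshold at 0.498 with an overlap of 0.5 of the shorter peak, 0.410 with centres at most 100 bp apart and 0.326 without promoter peaks, and that of p300 at 0.527 and 0.492 under the first of these and the second. Apart from the fewer peaks, the cause was not tested. The odds ratio ranged from 23.1 to 35.9 for the promoter share, from 0.0826 to 0.111 and from 2.55 to 3.27 for the shared shares of LP and Phase 1 peaks, and from 0.125 to 0.539 for the RUNX string. That of the CTCF string ranged from 1.38 with 1 mismatch allowed to 4.80 in the whole peak, from few matches. It gave no value with a minimum score of 30, with equal numbers of peaks or without promoter peaks, because a count was 0. No replicate could be left out. No paired analysis was possible because the lists combine both replicates. Depth was not given for each list, which limits what a missing peak means in the short lists.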

Other observations

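A few guide-control peaks went against the unmanipulated lists. At Psip1, a chromatin-associated coactivator, an LP-only peak (17.3) lay 381 bases from a Phase 1-only promoter peak (32.0), and at Crlf2, a chain of the TSLP receptor, an LP-only peak (33.3) lay 308 bases from a Phase 1-only peak (30.3). In both cases the LP-only peak overlapped the unmanipulated Phase 1 list alone and the Phase 1-only peak the unmanipulated LP list alone. Among the 9 LP-only peaks in neither unmanipulated list was the promoter of Gt(ROSA)26Sor (33.5), the locus of the Cas9 knock-in that all cells carry, beside promoters of Pknox1 (36.3) and Brca1 (23.3). Among the 11 such Phase 1-only peaks were Pip4k2c (50.5), Pgls (50.0) and Klf13 (41.3). These peaks were named after their values were seen.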
